A study of Mus musculus with 6 samples.

Results

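Guidance genes encode the ligands and receptors by which axons, migrating cells and growing vessels read their surroundings. They are taken here as the ephrins and Eph receptors, the semaphorins of classes 3 to 7, the plexins and neuropilins, the Slits and Robos, and the netrins with their receptors Dcc and Unc5. Members were picked by gene symbol alone, from the protein-coding genes of the GENCODE M21 annotation. The rule uses no measured value, but it was chosen with earlier results of these data known. They numbered 69, among 21836 protein-coding genes and 53390 genes of every type with matched transcripts. Of the 69 members, 35 were counted as ligands (ephrins, semaphorins, Slits and netrins) and 34 as receptors.

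RNA was sequenced from TKO mESCs, a triple knockout line without functional Dnmt1, Dnmt3a and Dnmt3b, so that every library of both groups carried the same DNA methyltransferase deletions. The line derives from male J1 mESCs of the 129S4/SvJae strain and was grown without feeders on gelatin. TKO-serum cells (n = 3 libraries) grew in medium with 15% fetal calf serum and LIF at 500 U/ml. TKO-2i cells (n = 3 libraries) grew in N2B27 medium with 1000 U/ml LIF and a pair of inhibitors, 1 µM PD0325901 against MEK and 3 µM CHIR99021 against GSK3. Libraries were stranded, poly(A)-selected and made from 500 ng of RNA, and which sequencing pool held which library is not given. The total of estimated counts was 46228700, 44180642 and 43896549 for replicates 1, 2 and 3 of TKO-2i. For those of TKO-serum it was 38274042, 51932739 and 44827609. Levels are given as CPM, counts scaled by the normalized library size, for the same gene across samples, and as TPM, which takes transcript length into account, for different genes side by side. A gene with 3 counts had between 0.0564 and 0.0778 CPM, a floor that covers counting error only.

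Transcripts of the deleted genes were still counted. Where in each gene the reads lie was not looked at, so these values do not check the knockout. Dnmt1 had 29.1, 34.6 and 29.3 TPM in TKO-2i against 25.7, 28.6 and 27.9 TPM in TKO-serum. Dnmt3a had 4.30, 5.19 and 4.54 TPM in TKO-2i against 21.3, 23.0 and 22.7 TPM in TKO-serum. Dnmt3b had 6.71, 9.53 and 8.49 TPM in TKO-2i against 18.8, 20.9 and 20.7 TPM in TKO-serum. All 3 TKO-2i libraries lay below all TKO-serum libraries for Dnmt3a and Dnmt3b and above them for Dnmt1, with log2 fold changes of -2.04, -1.11 and 0.24 in that order.

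Ephrins sit on the surface of one cell and bind Eph receptor tyrosine kinases on the next, and signals run into both cells, usually to push them apart or to sort them into domains. Semaphorins act through plexins, with neuropilins as co-receptors for most class 3 members, while Slits act through Robo receptors and netrins through Dcc and Unc5 receptors. All of these systems act on the cytoskeleton, and in the embryo they are known from tissue boundaries, the vasculature and axon tracts.

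The labelled cell type was checked against markers. All 10 pluripotency genes listed were present, with 5682, 5235 and 5175 summed TPM in TKO-2i and 6501, 6184 and 6286 summed TPM in TKO-serum. Of these 10 genes, 3 were higher in TKO-2i, 4 were lower and 3 did not pass the test, and Dppa5a was the most abundant. Fibroblast markers, which would come from feeder cells, summed to 32.1, 32.0 and 31.3 TPM in TKO-2i against 28.0, 28.7 and 28.1 TPM in TKO-serum. Of the 5 fibroblast markers tested among 10 listed, 2 were higher, 2 were lower and 1 did not pass, Fbln1 was the most abundant, and Col3a1, Lum, Postn and Twist2 had a mean under 0.1 TPM in both conditions. Targets of the pathways that the inhibitors act on also moved. Dusp6, an ERK phosphatase induced by ERK signalling, had 3.30, 3.08 and 2.95 TPM in TKO-2i against 23.5, 25.8 and 25.3 TPM in TKO-serum. Of 8 listed ERK targets, 7 were lower in TKO-2i and Etv4 was higher, with a median log2 fold change of -1.14. Axin2, a feedback inhibitor of Wnt signalling, had 41.9, 47.8 and 46.5 TPM in TKO-2i against 3.71, 4.67 and 4.79 TPM in TKO-serum. Of 8 listed Wnt targets, 5 were higher, Lef1 was lower and 2 did not pass, with a median log2 fold change of 2.07. Beside all of these lists, 31.9% of all genes tested were higher in TKO-2i and 30.6% were lower.

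Most guidance genes differed between the media, in both directions. Of 64 members with enough counts to be tested, 50 (78.1%) had a p under 0.05 in the quasi-likelihood test of edgeR after Benjamini-Hochberg adjustment over all 18177 genes tested. The same threshold was passed by 62.5% of all genes tested and by 67.2% of the protein-coding ones. Higher levels in TKO-2i were called for 23 members (35.9%), beside 31.9% of all genes. Of these, Efna1, Efna2, Efna3, Efna4, Epha7, Plxnb3, Sema4d and Sema4g lost the call with limma on log2(TPM + 0.1). Lower levels were called for 27 members (42.2%), beside 30.6% of all genes. Counts by family, system and role below stand beside these same shares of all genes, 31.9% higher and 30.6% lower. How they differ from them was not tested. With a change of at least 2-fold as well, 10 members (15.6%) were upregulated and 16 (25.0%) were downregulated, beside 7.72% and 15.6% of all genes. These counts fell to 6 and 10 with limma on log2(TPM + 0.1) and to 4 and 4 on log2(TPM + 1). The shares of all genes at 2-fold come from the edgeR fit alone, so these lower counts have no share beside them. With members on chromosomes 6 and 11 left out, 6 were upregulated, and Epha1 and Plxnd1 no longer counted among the downregulated. The CPM values of the groups did not overlap for 53 of the 64 members (82.8%), beside 67.5% of all genes tested. The median log2 fold change, TKO-2i over TKO-serum, was -0.18 over the members tested, 0.01 over all genes and 0.03 over protein-coding genes. Taken without sign, the median was 0.83 for members, 0.44 for all genes and 0.43 for protein-coding genes.

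Of the 22 members with a mean of at least 5 TPM in either condition, 14 were higher in TKO-2i, 5 were lower and 3 did not pass, with a median log2 fold change of 0.32. Of the 21 members between 1 and 5 TPM, 7 were higher, 11 were lower and 3 did not pass, with a median of -0.23. Another 26 members stayed under 1 TPM in both conditions, and of the 21 of these that were tested, 2 were higher, 11 were lower and 8 did not pass, with a median of -0.84. The condition with the higher level sets the class, so a member can enter a class through its change, and no share of all genes at these levels was computed for comparison. Bulk libraries cannot tell fewer expressing cells from less RNA per cell. The labels call the replicates biological, but nothing says that they were separate cultures, so the p-values measure the spread between these 6 libraries. An exact permutation test of 3 against 3 samples cannot go below p = 0.1 and was not used.

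**Figure D1:**
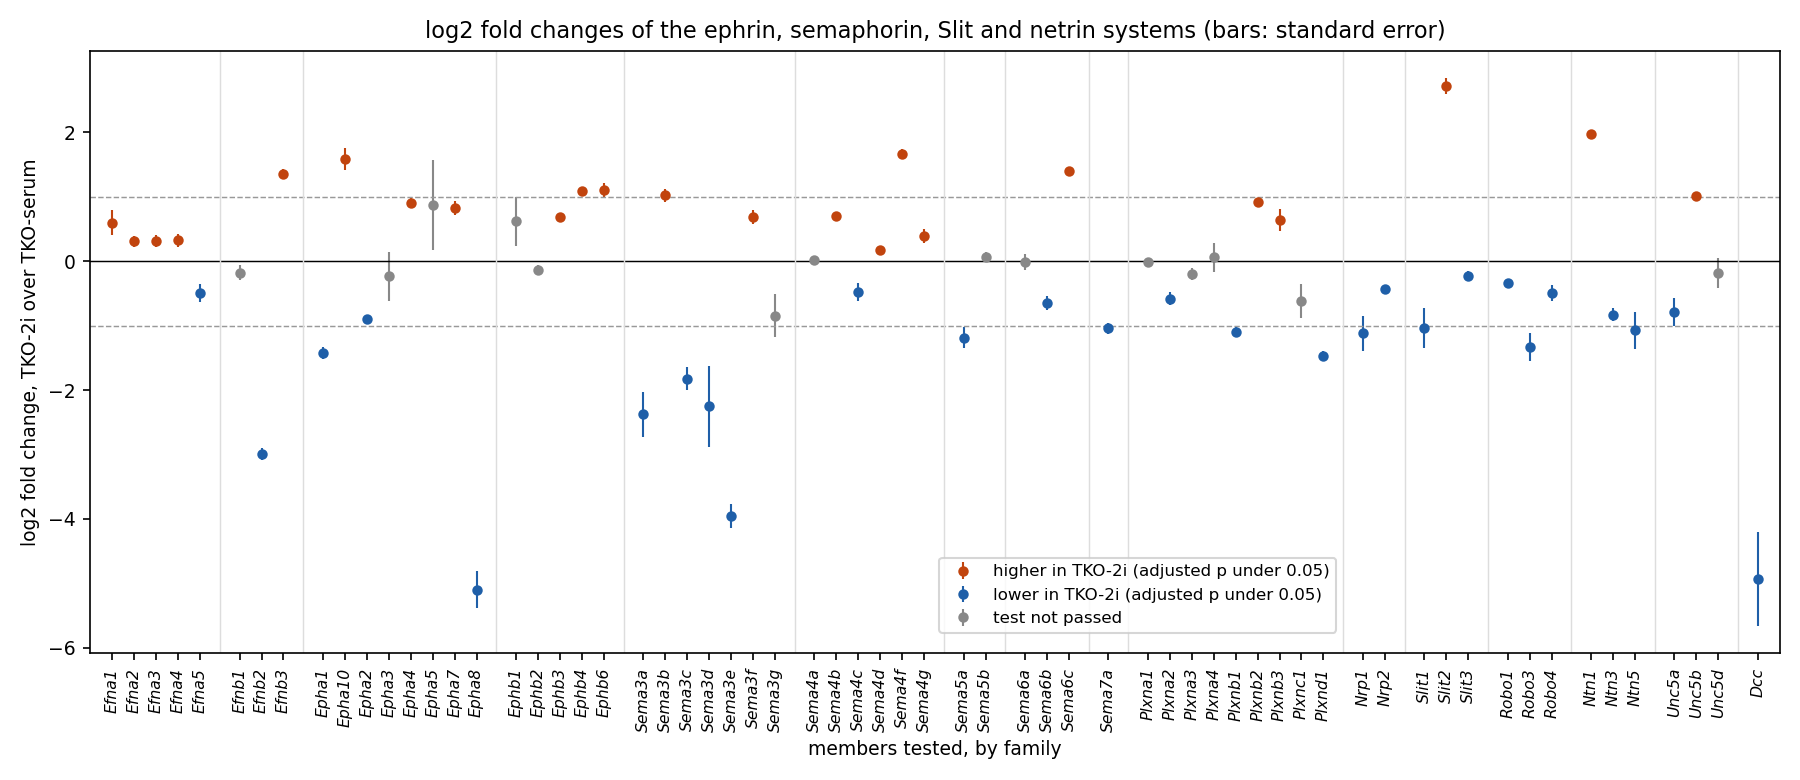
Log2 fold change of each of the 64 members tested (vertical axis, TKO-2i over TKO-serum, no unit), ordered by family along the horizontal axis, with bars for the standard error, colour for the call and dashed lines at a 2-fold change. The points run from -5.09 for Epha8 to 2.71 for Slit2, with 23 higher, 27 lower and 14 not passed.

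The summed level of the ligands was higher in TKO-2i, mostly through Ntn1, Sema4b and Sema6c. It was 171, 197 and 177 TPM in TKO-2i against 133, 141 and 138 TPM in TKO-serum, so that the groups did not overlap. Of 33 ligands tested, 14 (42.4%) were higher in TKO-2i, beside 31.9% of all genes, 14 (42.4%) were lower, beside 30.6%, and 5 did not pass. Receptors summed to 195, 239 and 202 TPM in TKO-2i and to 223, 238 and 229.8 TPM in TKO-serum, where the groups overlapped because TKO-2i replicate 2 was the highest of the 6 samples. Of 31 receptors tested, 9 (29.0%) were higher, 13 (41.9%) were lower and 9 did not pass. TKO-2i replicate 2 also had the largest summed TPM of ligands.

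Ephrin-A ligands, which are tethered to the membrane by a lipid anchor, were slightly higher in TKO-2i for 4 of 5 members, whose calls were lost under several alternatives, and Efna5 was lower. Ephrin-B ligands, which span the membrane and signal through their own tails, changed their leading member, with Efnb2 far lower and Efnb3 higher in TKO-2i. The summed level of ephrin-A genes was 30.8 ± 1.10 TPM (SD, n = 3) in TKO-2i and 27.9 ± 0.664 TPM in TKO-serum. That of ephrin-B genes was 6.47 ± 0.739 TPM in TKO-2i and 9.90 ± 0.757 TPM in TKO-serum.

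Efnb2 (ENSMUSG00000001300, chr8:8617434-8661242 of GRCm38, minus strand) encodes the ephrin that marks arterial endothelium and binds Ephb4. It had 2.30, 2.52 and 2.23 CPM in replicates 1, 2 and 3 of TKO-2i, against 18.6, 19.9 and 17.5 CPM in those of TKO-serum. Every TKO-2i library lay far below every TKO-serum library, and the spread within a group was small beside the gap. The log2 fold change of -2.99 had a standard error (SE) of 0.09 (adjusted p = 7.4e-08, quasi-likelihood test of edgeR, Benjamini-Hochberg). Efnb2 made up 63.1 ± 0.683% (SD, n = 3) of ephrin-B TPM in TKO-serum and 11.4 ± 0.410% in TKO-2i. The share of Efnb3, a ligand known from the midline of the nervous system, ran the other way, from 18.4 ± 1.78% in TKO-serum to 66.4 ± 1.53% in TKO-2i. Efnb3 rose with a log2 fold change of 1.35 (SE 0.08), and it lies on chromosome 11, whose tested genes had a median of 0.26, and stood at 1.09 with it subtracted. Efnb1, the X-linked member, had a log2 fold change of -0.18 and did not pass (adjusted p = 0.216), though with limma it passed as lower on log2(TPM + 1) (0.0427) and on log2(TPM + 0.1) (0.0410). Efnb1 and Efnb3 were named after their values were seen.

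The ephrin-A genes moved little. Efna2 had 8.68, 8.37 and 8.49 CPM in TKO-2i against 7.57, 6.50 and 6.61 CPM in TKO-serum. Efna3 had 13.9, 11.9 and 14.7 CPM in TKO-2i against 11.6, 10.1 and 11.01 CPM in TKO-serum. Efna4 had 17.5, 14.8 and 19.3 CPM in TKO-2i against 14.6, 13.0 and 13.7 CPM in TKO-serum. For all 3 genes the TKO-2i libraries were the higher ones without overlap, but for Efna3 and Efna4 the lowest TKO-2i library, replicate 2, lay close to the highest TKO-serum library, replicate 1. Their log2 fold changes were 0.31, 0.31 and 0.32, with standard errors of 0.09, 0.10 and 0.10 and adjusted p of 0.0125, 0.0192 and 0.0226 from the quasi-likelihood test of edgeR, Benjamini-Hochberg adjusted. These calls were fragile. Without TKO-serum replicate 2 the adjusted p was 0.0511 for Efna2, 0.0732 for Efna3 and 0.0792 for Efna4, and on log2(TPM + 0.1) with limma it was 0.142, 0.706 and 0.0712. Efna1 rose with a log2 fold change of 0.59, a call lost without TKO-2i replicate 3 or any one of the TKO-serum libraries, and Efna5 fell with -0.50. Efna1, Efna3 and Efna4 lie side by side on chr3:89271733-89338028 with no other tested gene between them, and all 3 were higher in TKO-2i. Efna3 and Efna4 share 14.1% and 10.5% of their exon bases with genes on the opposite strand, and whether the authors' counting used the strand is not given.

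EphA transcripts, whose receptors mostly bind ephrin-A ligands, summed to 64.6 ± 7.77 TPM (SD, n = 3) in TKO-2i and 90.4 ± 4.13 TPM in TKO-serum, with 3 members higher, 3 lower and 2 not passed among 8 tested. EphB transcripts, whose receptors mostly bind ephrin-B ligands, summed to 39.1 ± 2.96 TPM in TKO-2i and 24.5 ± 0.665 TPM in TKO-serum, with 3 members higher, none lower and 2 not passed among 5 tested. Within EphA the balance shifted from Epha2 to Epha4. Over the whole Eph and ephrin system of 22 members, 21 were tested, with a median log2 fold change of 0.32. Of these, 11 (52.4%) were higher, beside 31.9% of all genes, 5 (23.8%) were lower, beside 30.6%, and 5 did not pass. Among the higher ones, Efna1, Efna2, Efna3 and Efna4 lost their calls without TKO-serum replicate 2 or without replicate 3. With limma on log2(TPM + 0.1) Epha7 was lost as well as these genes.

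Epha2, a receptor widely expressed in epithelia and in the early embryo, was the most abundant Eph gene of both media. It had 119.9, 118 and 117 CPM in TKO-2i against 224, 221 and 221 CPM in TKO-serum. The groups were far apart and each was nearly flat. The log2 fold change was -0.91 with a standard error of 0.05 (adjusted p = 1.0e-06, quasi-likelihood test of edgeR, Benjamini-Hochberg). Epha4, which unlike most EphA receptors binds both ephrin classes, had 109, 129.9 and 111 CPM in TKO-2i against 62.7, 64.7 and 59.9 CPM in TKO-serum. All TKO-2i libraries were above all TKO-serum libraries, with replicate 2 the highest of its group in both media, and the log2 fold change was 0.90 (SE 0.08, adjusted p = 1.7e-05). Epha2 held 53.2 ± 0.969% (SD, n = 3) of EphA TPM in TKO-2i and 76.7 ± 0.456% in TKO-serum, while Epha4 held 40.9 ± 0.632% and 16.3 ± 0.480%.

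The rise of Epha4 rested partly on a transcript annotated as a target of nonsense-mediated decay. Epha4-205 took 60.2%, 59.3% and 49.9% of the gene's TPM in TKO-2i and 52.1%, 29.2% and 54.9% in TKO-serum. The protein-coding Epha4-201 took 31.8%, 35.8% and 39.8% in TKO-2i and 41.6%, 63.7% and 40.2% in TKO-serum. When only protein-coding transcripts were summed, the log2 fold change of Epha4 was 0.44 and no longer passed (adjusted p = 0.0836).

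Among the EphB receptors, Ephb4, the partner of Efnb2 that marks veins, had 81.6, 76.7 and 78.8 CPM in TKO-2i against 38.8, 34.9 and 37.4 CPM in TKO-serum. Ephb3, known from the sorting of intestinal crypt cells, had 46.5, 43.7 and 46.1 CPM in TKO-2i against 28.4, 27.4 and 28.8 CPM in TKO-serum. Both genes were higher in every TKO-2i library, and replicate 2 was the lowest of each group. Ephb4 had a log2 fold change of 1.09 and Ephb3 one of 0.69, with standard errors of 0.06 and 0.05 and adjusted p of 9.5e-07 and 7.2e-06 by the same edgeR test. Efnb2 and Ephb4 thus moved in opposite directions, the ligand down and the receptor up in TKO-2i. The remaining Eph genes were scarcer and are named after their values were seen. Epha10 and Epha7 were higher, with log2 fold changes of 1.59 and 0.82, and Epha7 did not pass with limma on either TPM scale. Ephb6, whose kinase domain is inactive, was higher by 1.10 and Epha1 was lower by a log2 fold change of -1.42, and both lie on chromosome 6, whose tested genes had a median of 0.41. With that median subtracted, Ephb6 stood at 0.69 and Epha1 at -1.83. Epha8 had the lowest log2 fold change of all members, -5.09 (SE 0.29), on 1, 3 and 2 counts in TKO-2i and 65, 84 and 78 in TKO-serum. Its TKO-serum to TKO-2i ratio was 37.6, with a 95% exact interval of 17.0 to 104 that covers counting error only. Epha3, Epha5, Ephb1 and Ephb2 did not pass, though Ephb2 passed as lower on length-scaled counts (0.0424) and on log2(TPM + 1) with limma (0.0441), and Epha6, with a single count in a single TKO-serum library, was not tested.

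The secreted class 3 genes had the lowest median of any family with more than 1 member, and 4 of 7 were lower in TKO-2i, 2 were higher and 1 did not pass (median log2 fold change -1.82). Of 6 transmembrane class 4 genes, 4 were higher, 1 was lower and 1 did not pass, and their summed level was 71.9 ± 6.05 TPM (SD, n = 3) in TKO-2i and 56.7 ± 2.31 TPM in TKO-serum. Of 3 class 6 genes tested, 1 was higher, 1 was lower and 1 did not pass. Class 5 and class 7 genes included none that rose.

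Sema3e (ENSMUSG00000063531, chr5:14025276-14256689 of GRCm38, plus strand) encodes a secreted ligand that binds Plxnd1 directly, without a neuropilin, and shapes growing vessels. It had 0.580, 0.705 and 0.328 CPM in TKO-2i against 8.22, 8.55 and 8.53 CPM in TKO-serum. The TKO-serum libraries were nearly equal, and all TKO-2i libraries stood under 1 CPM. Its log2 fold change was -3.96 with a standard error of 0.19 (adjusted p = 5.6e-07, quasi-likelihood test of edgeR, Benjamini-Hochberg). Sema3e made up 30.1 ± 0.752% (SD, n = 3) of class 3 TPM in TKO-serum and 1.74 ± 0.541% in TKO-2i. Its receptor Plxnd1, on chromosome 6, was also lower in TKO-2i, with 7.88, 8.44 and 7.25 CPM there, 21.002, 21.2 and 22.8 CPM in TKO-serum and a log2 fold change of -1.46 (SE 0.08, adjusted p = 1.1e-06). With the median of its chromosome subtracted Plxnd1 stood at -1.87, and it was named after its values were seen.

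The other class 3 genes were scarce, with no mean above 4 TPM. Sema3a, the classic repellent of sensory axons, fell with a log2 fold change of -2.38 (SE 0.35), and Sema3c, known from the cardiac outflow tract, fell with -1.82 (SE 0.18). Sema3d fell with -2.25 (SE 0.62) on totals of 9 counts in TKO-2i and 47 in TKO-serum. It no longer passed without TKO-serum replicate 2 (adjusted p = 0.0533, edgeR) or with limma on log2(TPM + 1) (adjusted p = 0.123). With a mean of at least 10 counts, or on length-scaled counts, it was not tested. Its log2 fold change ranged from -3.74 to -1.86 when 1 library was left out. Sema3b and Sema3f, both described as suppressors of tumour growth, rose with log2 fold changes of 1.02 and 0.68. Together Sema3b and Sema3f held most of the class 3 TPM in TKO-2i, 43.1 ± 3.25% and 49.8 ± 2.19% (SD, n = 3), and less in TKO-serum, 26.4 ± 2.89% and 29.8 ± 1.84%. Sema3g did not pass (adjusted p = 0.0548), but it passed as lower with size factors from DESeq2 (0.0486), without a filter (0.0389), with only protein-coding transcripts (0.0452) or genes (0.0395), and without TKO-2i replicate 2 (0.00596).

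Several class 3 genes are neighbours. Sema3d, Sema3a, Sema3e and Sema3c lie in this order within 5.35 Mb of chromosome 5 (chr5:12383385-17730268), and all 4 were lower in TKO-2i. Between them lie 10 other tested genes, of which 6 were lower, 1 was higher and 3 did not pass, with a median log2 fold change of -1.61 beside -0.02 for the chromosome. One of these, Pclo, which encodes a presynaptic scaffold protein, had 0.223, 0.432 and 0.375 CPM in TKO-2i against 1.76, 1.69 and 1.85 CPM in TKO-serum. Another, Cacna2d1, a calcium channel subunit, had 3.61, 4.48 and 3.24 CPM in TKO-2i against 7.05, 7.27 and 6.25 CPM in TKO-serum. The 1 higher gene, Gm10108, had 4.73, 3.00 and 2.20 CPM in TKO-2i against 0, 0 and 0 CPM in TKO-serum. Sema3b and Sema3f, the class 3 genes that rose, are neighbours on chr9:107597674-107710475, and of 4 other tested genes between them 1 was higher, 2 were lower and 1 did not pass, with a median of -0.26. These stretches were chosen after their values were seen and are given as a description.

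Sema4b, a transmembrane ligand and the most abundant semaphorin of both media, had 112, 110.4 and 114 CPM in TKO-2i against 70.7, 67.5 and 70.1 CPM in TKO-serum. Sema4d, which binds Plxnb1 and is also known from lymphocytes, had 58.8, 59.5 and 59.9 CPM in TKO-2i against 53.2, 53.2 and 52.5 CPM in TKO-serum. Sema4f had 20.1, 20.03 and 22.2 CPM in TKO-2i against 6.97, 6.07 and 6.75 CPM in TKO-serum. All 3 genes were higher in every TKO-2i library, by a wide margin for Sema4f and by a narrow one for Sema4d. The log2 fold changes were 0.69 for Sema4b, 0.16 for Sema4d and 1.66 for Sema4f, with standard errors of 0.05, 0.04 and 0.08 and adjusted p of 6.4e-06, 0.0099 and 7.2e-07 by the quasi-likelihood test of edgeR, Benjamini-Hochberg adjusted. Sema4f lies on chromosome 6, and with the median of that chromosome subtracted its log2 fold change was 1.25. The call of Sema4d was lost without a filter (adjusted p = 0.0756), on counts from length-scaled TPM (adjusted p = 0.0942) and without TKO-2i replicate 3 (adjusted p = 0.0588). With limma on either TPM scale the calls of Sema4c, Sema4d and Sema4g were lost, which left Sema4b and Sema4f higher, and Sema4g was also lost without TKO-serum replicate 1 (adjusted p = 0.0526) and Sema4c without replicate 3 (0.0732). Sema4a, a ligand that acts on T cells and in the retina, had 14.3, 14.1 and 14.8 CPM in TKO-2i against 14.2, 13.6 and 15.0 CPM in TKO-serum. The groups overlapped, the log2 fold change was 0.01 and the test was not passed (adjusted p = 0.893). A retained-intron transcript, Sema4a-212, took 70.8%, 72.7% and 76.4% of the gene's TPM in TKO-2i and 81.4%, 78.7% and 70.4% in TKO-serum.

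Sema6c, a transmembrane semaphorin of the class that signals through A plexins, led class 6 in both media. It had 27.9, 27.8 and 27.8 CPM in TKO-2i against 9.98, 10.3 and 11.5 CPM in TKO-serum. The 3 TKO-2i libraries were almost identical and all lay above TKO-serum. Its log2 fold change was 1.39 with a standard error of 0.07 (adjusted p = 6.8e-07, quasi-likelihood test of edgeR, Benjamini-Hochberg). Sema6b was lower with a log2 fold change of -0.65, Sema6a did not pass and Sema6d was not tested. In class 5, whose members carry thrombospondin repeats, Sema5a fell with a log2 fold change of -1.19, and the call was lost on counts from length-scaled TPM (adjusted p = 0.0521). Sema5b had 5.10, 5.14 and 4.60 TPM in TKO-2i against 4.39, 5.27 and 5.06 TPM in TKO-serum and did not pass (adjusted p = 0.407). Sema7a, the lipid-anchored semaphorin that binds Plxnc1 and integrins, had 4.33, 4.21 and 4.43 CPM in TKO-2i against 8.66, 8.76 and 9.33 CPM in TKO-serum. Its groups were well apart, with a log2 fold change of -1.04 (SE 0.08, adjusted p = 8.5e-06). Plxnc1 itself did not pass (adjusted p = 0.0704), but it passed as lower on length-scaled counts (0.0436), with only protein-coding genes (0.0487) and without TKO-2i replicate 2 (0.0128). Over all 19 semaphorins tested, 7 (36.8%) were higher, beside 31.9% of all genes, 8 (42.1%) were lower, beside 30.6%, and 4 did not pass.

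Plexins, the semaphorin receptors with a GTPase-activating domain inside the cell, kept their total while members moved against each other. Their summed level was 75.0 ± 9.63 TPM (SD, n = 3) in TKO-2i and 75.1 ± 2.10 TPM in TKO-serum. Of 9 tested, 2 (22.2%) were higher, beside 31.9% of all genes, 3 (33.3%) were lower, beside 30.6%, and 4 did not pass. The B plexins, receptors for class 4 semaphorins, split, with Plxnb2 and Plxnb3 up and Plxnb1 down in TKO-2i. The call of the scarce Plxnb3 (0.63) was lost with limma on TPM and on length-scaled counts. Both neuropilins were lower in TKO-2i, and their summed level was 13.1 ± 1.67 TPM in TKO-2i and 18.9 ± 1.15 TPM in TKO-serum.

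Plxna1, a receptor for class 3 semaphorins together with neuropilins, was the most abundant plexin of TKO-serum. It had 196, 213 and 200.2 CPM in TKO-2i against 207, 204 and 206 CPM in TKO-serum. The groups overlapped, with TKO-2i replicate 2 the highest of all samples, and the log2 fold change of -0.02 did not pass (adjusted p = 0.788). It lies on chromosome 6 and stood at -0.43 with the median of that chromosome subtracted. Plxna1 shares 10.7% of its exon bases with Gm26811 on the opposite strand. Plxna3, a further class 3 receptor, had 18.3, 23.4 and 21.1 CPM in TKO-2i against 22.4, 24.3 and 25.4 CPM in TKO-serum. The groups overlapped only through TKO-2i replicate 2, and the log2 fold change was -0.20 (adjusted p = 0.0933). Without that library Plxna3 passed, with an adjusted p of 0.00599, and with only protein-coding transcripts summed it passed with 0.0247.

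Plxnb2, a receptor of class 4 semaphorins, had 141, 149 and 149 CPM in TKO-2i against 80.3, 73.2 and 79.1 CPM in TKO-serum. Plxnb1, the receptor of Sema4d, had 13.7, 15.9 and 13.9 CPM in TKO-2i against 31.8, 29.9 and 31.3 CPM in TKO-serum. For both genes the groups did not overlap. The log2 fold change was 0.92 for Plxnb2 and -1.10 for Plxnb1, with standard errors of 0.06 and 0.07 and adjusted p of 3.0e-06 and 3.7e-06 from the quasi-likelihood test of edgeR, Benjamini-Hochberg adjusted. Nrp2, a co-receptor for class 3 semaphorins and for VEGF-C, had 66.1, 75.4 and 73.4 CPM in TKO-2i against 93.8, 97.6 and 97.5 CPM in TKO-serum. All TKO-2i libraries were lower, replicate 1 the most, and the log2 fold change was -0.43 (SE 0.06, adjusted p = 0.00040). Nrp1, the co-receptor of Sema3a and VEGF-A, was scarce, with means of 0.100 and 0.210 TPM, and fell with a log2 fold change of -1.12, which did not pass on log2(TPM + 1) with limma (adjusted p = 0.0736). Over the whole semaphorin system, 9 of 30 members tested were higher, 13 were lower and 8 did not pass, with a median of -0.31.

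Slit and Robo genes divided into 1 strongly upregulated ligand and 5 lower members, of which 2 changed at least 2-fold. The calls of Slit1 and Slit3 were lost without TKO-serum replicate 3, and those of Robo3 and Robo4 with only protein-coding transcripts summed. Slit2 rose and became the leading Slit in TKO-2i, while Slit1 and Slit3 were lower, and all 3 Robo genes tested were lower. The summed level of the Slits was 7.58 ± 0.804 TPM (SD, n = 3) in TKO-2i and 3.53 ± 0.153 TPM in TKO-serum. That of the Robos was 9.61 ± 1.4002 TPM in TKO-2i and 14.8 ± 0.576 TPM in TKO-serum.

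Slit2 (ENSMUSG00000031558, chr5:47983138-48307733 of GRCm38, plus strand) encodes a secreted repellent that keeps axons from recrossing the midline. It had 21.9, 28.5 and 22.5 CPM in TKO-2i against 3.99, 3.72 and 3.42 CPM in TKO-serum. Every TKO-2i library was far above TKO-serum, and replicate 2 was the highest. The log2 fold change of 2.71 was the highest of all members, with a standard error of 0.12 (adjusted p = 5.0e-07, quasi-likelihood test of edgeR, Benjamini-Hochberg). Slit2 made up 74.4 ± 3.72% (SD, n = 3) of Slit TPM in TKO-2i and 26.1 ± 7.31% in TKO-serum, and Slit3 made up 24.4 ± 2.33% and 69.6 ± 8.89%. Slit3, on chromosome 11, fell with a log2 fold change of -0.23 (SE 0.08), or -0.49 with the median of that chromosome subtracted, and did not pass without TKO-2i replicate 1 or TKO-serum replicate 1 or 3 (adjusted p = 0.0578, 0.0528 and 0.119). The call of Slit1 (-1.03, standard error 0.31) was lost in 6 of the alternatives. The adjusted p was 0.0958 with DESeq2, 0.455 on length-scaled counts, 0.467 and 0.353 with limma on log2(TPM + 1) and log2(TPM + 0.1), and 0.0679 and 0.0561 without TKO-serum replicates 2 and 3.

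Robo1, the main Slit receptor of these cells, had 42.7, 43.8 and 41.2 CPM in TKO-2i against 55.1, 53.2 and 54.1 CPM in TKO-serum. The groups were clearly apart although the change was small, with a log2 fold change of -0.35 (SE 0.05, adjusted p = 0.00028, quasi-likelihood test of edgeR, Benjamini-Hochberg). Robo4, the endothelial member, fell with a log2 fold change of -0.50. Robo3, which lets commissural axons cross the midline, fell with -1.33, but with only protein-coding transcripts summed its log2 fold change was -0.06 (adjusted p = 0.917) and Robo4 did not pass either (0.317). Robo3 was also lost with limma on log2(TPM + 1) (0.0583) and log2(TPM + 0.1) (0.0602). Robo2 had 2, 0 and 0 counts in TKO-2i and 9, 8 and 7 in TKO-serum and was not tested. Its TKO-serum to TKO-2i ratio was 11.9, with a 95% exact interval of 2.96 to 104, which covers counting error only.

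Netrin transcripts were higher in TKO-2i, and nearly all of this was Ntn1. The summed level of the netrins was 29.8 ± 2.29 TPM (SD, n = 3) in TKO-2i and 9.95 ± 0.529 TPM in TKO-serum. Ntn1, Ntn3 and Ntn5 were tested, and Ntn1 was higher while the others were lower. Of the receptors, Unc5b was higher and Dcc was lower, on low counts.

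Ntn1 (ENSMUSG00000020902, chr11:68209364-68400823 of GRCm38, minus strand) encodes netrin-1, a secreted cue that attracts axons through Dcc and repels them through Unc5 receptors. It had 121, 119 and 131 CPM in TKO-2i against 32.1, 31.2 and 30.7 CPM in TKO-serum. The TKO-serum libraries were nearly equal, and every TKO-2i library was far above them. The log2 fold change was 1.98 with a standard error of 0.06 (adjusted p = 6.3e-08, quasi-likelihood test of edgeR, Benjamini-Hochberg), and with the chromosome 11 median of 0.26 subtracted it was 1.72. Ntn1 was 96.4 ± 0.452% (SD, n = 3) of netrin TPM in TKO-2i and 77.3 ± 0.549% in TKO-serum. On average Ntn1-201 led in TKO-2i and Ntn1-202 in TKO-serum, but in TKO-2i replicate 2 Ntn1-202 was ahead. Ntn1-201 took 45.5%, 44.1% and 55.5% of the gene's TPM in TKO-2i and 32.3%, 28.0% and 8.15% in TKO-serum, while Ntn1-202 took 43.9%, 47.1% and 37.8% in TKO-2i and 59.6%, 65.5% and 86.6% in TKO-serum. Both are protein-coding, and the shares did not overlap between groups.

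Unc5b, a netrin receptor that triggers apoptosis when netrin is missing and that also guides vessels, had 49.8, 49.5 and 52.4 CPM in TKO-2i against 25.2, 25.2 and 25.4 CPM in TKO-serum. Both groups were tight and far apart, with a log2 fold change of 1.00 (SE 0.05, adjusted p = 6.6e-07, quasi-likelihood test of edgeR, Benjamini-Hochberg). Unc5b thus rose together with Ntn1. Its change lay right at the limit of the 2-fold rule, as did that of Sema3b, and both fell short of it under several alternatives. Dcc, the attractive netrin receptor, had 0, 2 and 0 counts in TKO-2i and 20, 40 and 16 in TKO-serum. These correspond to 0, 0.0455 and 0 CPM and to 0.519, 0.752 and 0.348 CPM, and the TKO-2i libraries lay under the floor of 3 counts. The log2 fold change was -4.93 with a standard error of 0.73 (adjusted p = 0.00042), and it ranged from -7.63 to -4.43 when 1 library was left out. The ratio of TKO-serum to TKO-2i was 37.8, with a 95% exact interval of 10.1 to 318 that covers counting error only. Unc5a fell with a log2 fold change of -0.79, Unc5d did not pass, and Unc5c, with 1, 3 and 1 counts in TKO-2i and 5, 12 and 13 in TKO-serum, was not tested. Ntn3 and Ntn5 fell with -0.83 and -1.08, and Ntn5 shares 23.4% of its exon bases with Sec1 on the opposite strand. Ntn4, with 3, 4 and 3 counts in TKO-2i and 8, 8 and 3 in TKO-serum, was not tested.

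**Figure D2:**
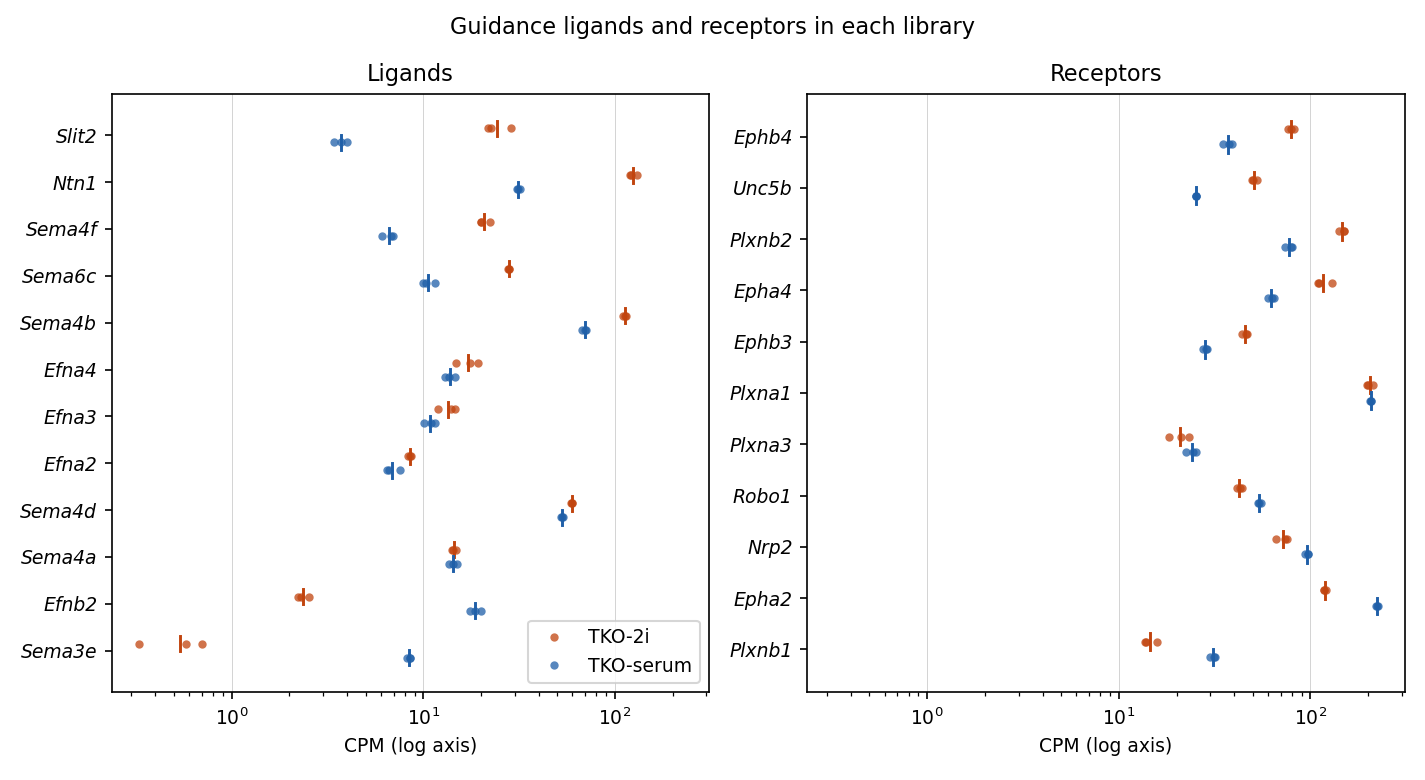
CPM on a log axis (horizontal) of the 12 ligands and 11 receptors given in every sample (vertical), with a point for each of 3 TKO-2i and 3 TKO-serum libraries and a vertical mark for the group mean. Slit2 (21.9 to 28.5 CPM against 3.42 to 3.99) and Ntn1 stand to the right in TKO-2i, Efnb2 and Sema3e (0.328 to 0.705 CPM against 8.22 to 8.55) stand to the left, and Sema4a, Plxna1 and Plxna3 overlap.

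On the TPM scale the order of levels changed between media. The most abundant ligands of TKO-2i were Sema4b at 35.7 ± 2.98 TPM (SD, n = 3), Ntn1 at 28.7 ± 2.13 TPM, Sema4d at 17.7 ± 1.12 TPM and Sema6c at 17.5 ± 2.39 TPM. Of these neighbours in the order, only Sema4d and Sema6c overlapped between genes. In TKO-serum the order began with Sema4b at 23.9 ± 0.784 TPM, Sema4d at 17.5 ± 0.860 TPM and Efna4 at 11.7 ± 0.125 TPM, each apart from the next. Then followed Sema4a at 8.49 TPM, Efna3 at 7.99 TPM, Ntn1 at 7.69 TPM, Sema6c at 7.33 TPM and Efnb2 at 6.25 TPM, where each overlapped with its neighbour. Ntn1 was thus the second ligand of TKO-2i and one of several at a like level in TKO-serum. Slit2 had 5.65 ± 0.785 TPM in TKO-2i and 0.931 TPM in TKO-serum, and Efnb2 had 0.738 TPM in TKO-2i.

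Among receptors, Epha2 stood alone at the top of TKO-serum with 69.3 ± 2.75 TPM (SD, n = 3), followed by Plxna1 at 34.7 ± 1.14 TPM. Plxnb2 at 19.3 ± 0.710 TPM and Nrp2 at 18.6 ± 1.18 TPM came next and overlapped with each other. In TKO-2i there was no such leader. Epha2 at 34.3 ± 3.53 TPM, Plxnb2 at 32.1 ± 4.08 TPM, Plxna1 at 30.2 ± 4.11 TPM and Epha4 at 26.5 ± 3.48 TPM overlapped one after another, and Ephb4 followed at 21.03 ± 1.53 TPM, below all of them.

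Genes that carry these signals inside the cell, none of them members, were counted from lists. Of 20 genes of Eph and ephrin signalling, 6 were higher in TKO-2i, 8 were lower and 6 did not pass, with a median log2 fold change of -0.10. Pdzrn3, a ubiquitin ligase with PDZ domains that lies on chromosome 6, had 2.53, 3.32 and 3.41 TPM in TKO-2i against 0.647, 0.771 and 0.500 TPM in TKO-serum. Grip1, a PDZ scaffold that binds ephrin-B tails, had 0.184, 0.232 and 0.181 TPM in TKO-2i against 0.689, 0.828 and 0.820 TPM in TKO-serum. Neither gene overlapped between groups, and their log2 fold changes were 2.37 and -2.02, with adjusted p of 5.0e-06 and 6.0e-06 in the quasi-likelihood test of edgeR, Benjamini-Hochberg adjusted.

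Of 25 semaphorin signalling genes tested among 26, 14 (56.0%) were lower in TKO-2i, beside 30.6% of all genes, 8 (32.0%) were higher, beside 31.9%, and 3 did not pass, with a median of -0.24. The difference from all genes was not tested. Collapsin response mediator proteins, which carry semaphorin signals to microtubules, were lower throughout. Dpysl3 had 1.99, 2.28 and 2.26 TPM in TKO-2i against 26.7, 30.2 and 26.9 TPM in TKO-serum. Crmp1 had 10.2, 10.7 and 10.2 TPM in TKO-2i against 54.7, 55.8 and 56.3 TPM in TKO-serum. Dpysl4 had 0.242, 0.413 and 0.278 TPM in TKO-2i against 1.90, 2.11 and 2.23 TPM in TKO-serum. The 3 genes were low in every TKO-2i library, with log2 fold changes of -3.59, -2.23 and -2.67 and adjusted p of 1.5e-08, 6.3e-08 and 1.1e-06 by the same edgeR test. Dpysl2 and Dpysl5 also fell, with log2 fold changes of -0.40 and -0.24, and were named after their values were seen. Fes, a tyrosine kinase that phosphorylates these proteins downstream of plexins, went up, with 1.98, 1.88 and 1.74 TPM in TKO-2i, 0.568, 0.258 and 0.472 TPM in TKO-serum and a log2 fold change of 2.21 (adjusted p = 9.7e-05).

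The other lists were mixed. Of 15 genes of Slit and Robo signalling, 5 (33.3%) were higher in TKO-2i, beside 31.9% of all genes, and 4 (26.7%) were lower, beside 30.6%. The other 6 did not pass, and the median was 0.01. Nell2, a secreted ligand of Robo3, had 0.0629, 0.0183 and 0.00968 TPM in TKO-2i against 1.16, 1.51 and 1.33 TPM in TKO-serum, which made it all but absent from TKO-2i, with a log2 fold change of -5.25 (SE 0.35, adjusted p = 4.0e-06). Of 13 netrin signalling genes tested among 15, 5 (38.5%) were higher, 4 (30.8%) were lower and 4 did not pass, with a median of 0.09. Neo1, the Dcc relative that also binds netrins, was higher in TKO-2i, with 26.5, 35.4 and 26.4 TPM in TKO-2i against 18.4, 22.2 and 19.1 TPM in TKO-serum, and was named after its values were seen. Its log2 fold change was 0.62 (adjusted p = 4.6e-05).

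Several members are best known from other cell types, and markers of those types moved between the media as well. Among members known from vessels, Efnb2, Sema3e, Plxnd1 and Robo4 were lower in TKO-2i, while Ephb4 and Unc5b were higher. Endothelial markers had 6 lower in TKO-2i, none higher and 1 not passed among 7 tested of 8. These markers summed to 4.33, 4.79 and 4.22 TPM in TKO-2i against 18.8, 18.5 and 18.1 TPM in TKO-serum. Tek was the most abundant in TKO-2i and Sox18 in TKO-serum, and Erg had a mean under 0.1 TPM in both conditions. Among genes known from the nervous system, Dcc, Robo3, Epha8 and the collapsin response mediators were lower in TKO-2i, while Slit2, Ntn1 and Efnb3 were higher. Neural markers had 7 lower and 1 higher among 8 tested of 10. They summed to 143, 144 and 139 TPM in TKO-2i against 361, 359 and 359 TPM in TKO-serum, Tubb3 was the most abundant in TKO-2i and Stmn2 in TKO-serum, and Neurog2 and Dcx had means under 0.1 TPM. Neural crest markers had 2 lower, 1 higher and 1 not passed among 4 tested of 6, with 44.4, 49.5 and 45.5 TPM in TKO-2i against 59.6, 64.0 and 60.0 TPM in TKO-serum. Ngfr led in TKO-2i and Foxd3 in TKO-serum, and Tfap2b and Pax3 had means under 0.1 TPM. Of all genes tested, 31.9% were higher in TKO-2i and 30.6% were lower, and how the marker lists differ from that was not tested. The part of these markers in the guidance gene results was not tested.

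Markers of early embryonic lineages moved too. All 8 markers of primed epiblast were lower in TKO-2i, with sums of 43.2, 46.7 and 43.0 TPM in TKO-2i against 122.6, 129.7 and 124 TPM in TKO-serum, and Zic2 was the most abundant. Of 10 primitive endoderm markers, 8 were lower, none was higher and 2 did not pass, with 199, 207 and 197 TPM in TKO-2i against 228, 246 and 234 TPM in TKO-serum, mostly from Sparc. Of 6 markers of primitive streak and mesoderm tested among 8, 3 were higher, 1 was lower and 2 did not pass, with 22.7, 23.6 and 27.8 TPM in TKO-2i against 4.53, 4.996 and 5.10 TPM in TKO-serum. T led in TKO-2i and Evx1 in TKO-serum, and Foxf1 had a mean under 0.1 TPM. Of 7 trophoblast markers tested among 8, 4 were higher, 2 were lower and 1 did not pass, with 92.2, 87.8 and 87.8 TPM in TKO-2i against 51.6, 53.2 and 50.1 TPM in TKO-serum. Krt8 led in TKO-2i and Tfap2c in TKO-serum, and Prl3d1 had a mean under 0.1 TPM. Some genes were on more than 1 list, so the lists are not independent. T, of the primitive streak list, and Lef1, of the primed epiblast list, were also listed as Wnt targets. Eomes was on both the primitive streak and the trophoblast list. The same shares of all genes, 31.9% higher and 30.6% lower, stand beside these lists. How far these lists bear on the guidance genes was not tested.

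The promoters of the members had a median of 22 CG pairs, beside 7 over genes of every type. CG pairs are the sites that DNA methyltransferases act on and that the TKO line cannot methylate. RefSeq promoters of GRCm38.p6, 250 bases before to 50 after the start, were found for 59 of the 69 members. The median number of CG pairs was 23 for 7 members upregulated at least 2-fold, 20 for 14 members downregulated at least 2-fold and 21 for the other 38, beside 7 over the promoters of 27025 genes. These 27025 genes, also used for the motif shares below, were not limited to protein-coding ones, as the members were. No value for protein-coding genes alone was computed, so the sets are unlike. The table has more than 1 start for 12 members, of which the first was used, so the counts and motifs hold for these starts. Those of Sema3a, Robo1 and Sema4d lie far inside the GENCODE gene and that of Robo2 far outside it. No promoter was in the table for Dcc, Efnb3, Ntn1, Plxna1, Plxna4, Sema3b, Sema3f, Sema6a, Slit1 and Unc5d. Short motifs of factors downstream of the ERK and Wnt pathways, and an E-box, were searched on both strands. CTTTGAT or CTTTGTT, the TCF/LEF motif, was in 3 members (5.08%), Efna4, Nrp2 and Plxnb1, beside 9.28% of all promoters. CCGGAAG, an ETS motif, was in Ephb6 and Plxnb1 (3.39%), beside 9.12% of all promoters. TGANTCA, the AP-1 motif, was in Sema4c and Sema4d (3.39%), beside 7.93%. CACGTG, an E-box, was in Epha8, Robo2, Sema3e and Sema6d (6.78%), beside 7.24%. A match is a description of these letters and shows no binding.

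Promoters are shown for the 3 members that changed at least 4-fold, had a mean of at least 1 CPM and did not overlap between groups. Capitals mark CG pairs, and each sequence runs 5′ to 3′ on the strand of its gene. Slit2, upregulated in TKO-2i, has 30 CG pairs (chr5:47982905-47983204, plus strand), Efnb2, downregulated, has 35 (chr8:8661193-8661492, minus strand), and Sema3e, downregulated, has 11 (chr5:14025026-14025325, plus strand), all from RefSeq on GRCm38.p6.
Slit2: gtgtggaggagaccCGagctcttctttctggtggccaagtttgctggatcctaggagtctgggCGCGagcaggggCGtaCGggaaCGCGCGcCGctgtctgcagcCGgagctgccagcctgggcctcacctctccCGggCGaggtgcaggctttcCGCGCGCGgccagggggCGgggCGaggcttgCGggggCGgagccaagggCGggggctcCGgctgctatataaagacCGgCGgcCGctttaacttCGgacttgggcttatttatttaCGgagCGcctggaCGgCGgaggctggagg
Efnb2: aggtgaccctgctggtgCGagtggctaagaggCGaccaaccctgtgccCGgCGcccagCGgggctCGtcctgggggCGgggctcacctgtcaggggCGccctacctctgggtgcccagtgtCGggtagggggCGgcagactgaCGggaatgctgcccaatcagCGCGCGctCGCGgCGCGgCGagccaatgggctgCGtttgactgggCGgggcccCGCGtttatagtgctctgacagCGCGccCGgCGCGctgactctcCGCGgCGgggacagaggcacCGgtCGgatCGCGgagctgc
Sema3e: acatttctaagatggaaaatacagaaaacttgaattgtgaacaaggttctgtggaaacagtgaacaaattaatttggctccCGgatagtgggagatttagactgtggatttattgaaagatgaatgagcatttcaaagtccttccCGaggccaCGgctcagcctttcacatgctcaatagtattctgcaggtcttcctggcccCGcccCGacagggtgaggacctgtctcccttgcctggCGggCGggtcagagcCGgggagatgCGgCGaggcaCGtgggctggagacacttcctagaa

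Protein-coding transcripts took 84.5%, 83.7% and 83.5% of the members' summed TPM in TKO-2i and 84.1%, 85.9% and 84.0% in TKO-serum. Retained-intron transcripts took 7.16%, 7.27% and 8.32% in TKO-2i and 9.10%, 7.53% and 9.46% in TKO-serum, and for both types the groups overlapped. Transcripts annotated for nonsense-mediated decay took 5.12%, 5.70% and 4.25% in TKO-2i against 3.06%, 2.74% and 3.49% in TKO-serum, a small share that was higher in every TKO-2i library. Epha4-205 is of this type. It took a mean of 56.5% of Epha4, at 26.5 TPM, in TKO-2i and 45.4% of 14.8 TPM in TKO-serum. The share is thus not shown to differ for members other than Epha4. Efnb2 was almost a single transcript, with Efnb2-201 at 100%, 96.4% and 100% of its TPM in TKO-2i and 100%, 99.6% and 99.5% in TKO-serum. Slit2-202 was on average the leading Slit2 transcript of both media, with 43.0%, 37.1% and 46.7% in TKO-2i and 29.1%, 73.2% and 50.2% in TKO-serum. Sema3e-201 was the only Sema3e transcript seen in TKO-2i and took 45.8%, 78.1% and 41.9% in TKO-serum, where the gene had more counts. Efnb2, Slit2, Sema3e and Ntn1 share no exon base with another annotated gene.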

How the data were processed

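The authors deposited 1 table per library with the estimated count of reads of each transcript, not normalized and mostly not whole, in the columns that salmon writes. The same deposited tables give TPM, which the authors' quantifier scaled by transcript length to the same sum in each library. The deposited lengths in bases were used only for counts from length-scaled TPM. The quantifier, its version and its index are not stated, and the labels name mm10.

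Transcript identifiers were looked up in GENCODE M21, which left out between 0.0473% and 0.0643% of the counts of a library. Estimated counts were added up per gene and rounded, genes with few counts were removed by filterByExpr, and library sizes were normalized with TMM (factors 0.970 to 1.03) in edgeR 4.0.16 under R 4.3.3. The quasi-likelihood functions glmQLFit and glmQLFTest compared TKO-2i with TKO-serum over 18177 genes, with condition as the only factor, and p-values were adjusted by Benjamini-Hochberg. A standard error is the absolute log2 fold change over the square root of the F statistic. CPM rests on the TMM-normalized library sizes, and a family's TPM is the sum over its genes. Ratios with an exact interval rest on summed counts over total counts. The biological coefficient of variation was 0.0902. Pearson's r across genes was at least 0.986 within a condition and at most 0.932 between conditions, and the first principal component of log2 CPM held 83.6% of the variance. Python 3.11.15 with pandas 2.3.3 and scipy 1.17.1 made the tables.

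Values of every sample are given for members with a mean of at least 5 TPM in either condition, or with an adjusted p under 0.05, an absolute log2 fold change of at least 2, at least 1 CPM on average and groups that do not overlap, 23 in all. A family without such a member is given by name, and of each signalling list at most 4 genes that meet the second condition are named. Values of every sample of other members, such as Plxnd1 and members with few counts, were added after they were seen. The members and lists were chosen with earlier results of these data known. One further list of signalling genes that had been planned is not reported. Alternatives were DESeq2 1.42.0, its size factors, no filter, a mean of at least 10 counts, length-scaled counts, limma 3.58.1 on log2(TPM + 1) and log2(TPM + 0.1), protein-coding transcripts or genes only, a replicate block, members on chromosomes 6 and 11 left out, the median of the gene's chromosome subtracted, and each sample left out in turn.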

Additional observations from a re-analysis of the deposited data

How the results depend on the processing

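No member's call changed direction in any setting, and between 40 and 52 members passed under the alternatives that kept all 6 samples, beside 50. With limma on log2(TPM + 0.1), 15 members were higher, 16 changed at least 2-fold (6 higher, 10 lower) and the median log2 fold change was -0.26. With limma on log2(TPM + 1), 8 changed at least 2-fold, 4 higher and 4 lower. That scale shrinks the change of genes under 1 TPM by its construction. With members on chromosomes 6 and 11 left out, 6 were higher by at least 2-fold, and Epha1 and Plxnd1 dropped out of the lower ones. No share of all genes at 2-fold is given for these settings. The cause of the other shifts was not tested.

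Sema4a, which did not pass in any setting, changed sign from 0.0111 to -0.0075 with DESeq2's size factors, -0.0073 with DESeq2, -0.0029 without a filter, -0.067 on length-scaled counts, -0.143 on log2(TPM + 1), -0.1592 on log2(TPM + 0.1) and -0.0131 with protein-coding genes only, and ranged from -0.0228 to 0.0475 when a sample was left out. The cause was not tested.

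With the replicate block, 51 members passed, none was lost and Plxna3 was gained (adjusted p = 0.0164, edgeR). Deviations from the group means of same-numbered samples had r of 0.222, 0.303 and 0.00261 across genes for replicates 1, 2 and 3, so not every pair was over 0.1 and the samples are taken to share only a number. As a hint from the data, 5 of the 6 samples correlated best with their own number in the other condition. Depth limits the members under 1 TPM most, of which 5 of 26 had too few counts to be tested.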
